A study of Mus musculus with 12 samples.

Results

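Defa29, Defa20 and Defa39 are alpha-defensins, small antimicrobial peptides whose genes lie together in a cluster on mouse chromosome 8. All probes of the array that carry one of these gene names were taken, which gave 6 probes of 3 genes among 45281 probes and 19343 named genes. The genes had been picked for lower signal in Baz1a mutant spermatids than in control spermatids, so that difference is described here and not tested. Alpha-defensins are made as precursors and cut to active peptides, in the mouse intestine by the protease MMP7. They are best known from Paneth cells at the base of the intestinal crypts, where TCF4 and Wnt signaling drive their genes, and mouse alpha-defensin (cryptdin) transcripts are also known from the testis. BAZ1A (also called ACF1) is a subunit of the ACF and CHRAC complexes, in which it pairs with the ATPase SNF2H to slide nucleosomes.

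Expression came from 12 Illumina MouseWG-6 v2.0 bead arrays, 1 for each cell type of each mouse, with RNA from pachytene/diplotene spermatocytes and round spermatids sorted by their Hoechst staining. The mice were adult males of mixed C57BL/6J and FVB/NJ background, 3 Baz1a+/- (controls 1 to 3) and 3 Baz1a-/- littermates (mutants 1 to 3), so the controls carried 1 copy of the same deletion. The mutant allele came from a single targeted line in which exon 6 had been removed by Stra8-Cre, a Cre driven by a promoter of the male germ line, and the deletion was then inherited in all cells. The authors set aside the spermatocyte array of mutant 1 for spermatid contamination, and here it entered the normalization but not the fit, which leaves 2 mutant spermatocyte arrays. Baz1a had no named probe here, so the arrays gave no check of the genotype.

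The median signal per array lay between 101 and 118 units, and 36.2 to 41.4% of probes were detected on an array (detection p-value below 0.05 against the negative-control beads). A set of 11 round spermatid marker probes averaged 11.26 to 11.43 on the log2 scale in control spermatids and 11.35 to 11.55 in mutant spermatids, against 7.13 to 8.59 in control spermatocytes. The spermatocyte array of mutant 3 stood at 9.75 on the same markers and that of mutant 2 at 7.80, so mutant 3 was the closest to spermatids of the arrays used. The 10 spermatocyte markers averaged 8.44 to 8.59 in control and 8.24 to 8.42 in mutant spermatids. In sorted cells, fewer cells that make a transcript and less RNA per cell cannot be told apart.

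In the RefSeq annotation of mouse assembly GRCm38.p6 the alpha-defensin region held 37 alpha-defensin genes, of which 30 were listed as protein-coding and 9 of those had a named probe. Defa29 came first along the chromosome, Defa20 followed after 4 other protein-coding alpha-defensins, and Defa39 after 7 more. The copies are close in sequence. Of 17 alpha-defensin promoters in the RefSeq table, 1 belonged to one of the 3 genes, that of Defa20, and it was compared with the rest over the 250 bases before the start of transcription. The Defa2 promoter was identical to it, and Defa32 shared 248 of the 250 bases. Defa21 and Defa22 each shared 245. Defa20 and Defa21 are printed because they are nearly the same promoter, and in control spermatids 2 of the 3 Defa20 probes were detected and the Defa21 probe was not. In mutant spermatids neither gene was detected. Defa20 lies at chr8:21509008-21509257 and Defa21 at chr8:21025295-21025544 on the plus strand of GRCm38.p6. Capitals mark TATAAA, the TATA box, and CAAAG, the core that TCF and LEF factors read in either orientation.
Defa20: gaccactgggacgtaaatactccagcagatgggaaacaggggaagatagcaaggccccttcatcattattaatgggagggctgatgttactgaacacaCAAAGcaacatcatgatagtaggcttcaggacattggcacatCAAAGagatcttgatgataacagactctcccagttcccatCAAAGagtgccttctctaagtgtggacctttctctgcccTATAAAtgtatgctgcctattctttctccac
Defa21: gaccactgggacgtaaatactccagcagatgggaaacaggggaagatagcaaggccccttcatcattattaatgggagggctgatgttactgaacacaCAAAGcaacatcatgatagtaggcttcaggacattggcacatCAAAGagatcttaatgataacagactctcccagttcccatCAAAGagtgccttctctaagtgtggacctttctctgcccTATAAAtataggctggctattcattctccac
The sequences differed at 5 positions, counted from 1 at the first printed base, which read G153A, G227A, T230G, C235G and T242A from Defa20 to Defa21. None of these lay in a marked motif (0 of 5). TATAAA began 31 bases before the start in both, and CAAAG began 152, 110 and 70 bases before it. Searched on both strands, with no base shared between the motifs, TATAAA was present in 12.4% of 32851 RefSeq promoters of the same length and in 16 of the 17 alpha-defensin promoters. At least 3 copies of CAAAG were present in 3.94% of all promoters and in 8 of the 17. These matches describe letters and not binding.

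Defa29 gave the brightest signal of the 3 genes. Its probe 1 (ILMN_2524936, Entrez Gene 13218) read 404, 727 and 672 units in spermatids of controls 1, 2 and 3, and 101, 117 and 116 units in those of mutants 1, 2 and 3. After normalization these were 8.03, 9.32 and 9.49 in controls and 4.46, 4.95 and 4.49 in mutants on the log2 scale. All 3 control arrays were far above all 3 mutant arrays, of which only that of mutant 2 was detected (detection p-value 0.014). The group means were 8.95 ± 0.80 (SD, n = 3) and 4.64 ± 0.27 (SD, n = 3). The fitted difference of mutant minus control was -4.43 ± 0.35 (SE). With 1 of 3 mutant arrays detected, its size depends on the background level, and no fold is given.

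The other Defa29 probe (ILMN_2993174) was much dimmer. It read 116, 136 and 119 units in spermatids of controls 1 to 3 and 98.2, 99.6 and 108 in those of mutants 1 to 3. Only controls 2 and 3 were detected, and no mutant array was. Its normalized means were 5.24 ± 0.54 and 4.35 ± 0.02 (SD, n = 3 each), at least 1.34-fold higher in controls, with a fitted difference of -0.97 ± 0.23 (SE). Such a bound sets the mean of the brighter group against the lowest signal of any detected probe on the arrays of the group in which the probe was not detected. Both are background-corrected and normalized signals, so each bound holds for this processing only. Both Defa29 probes had no symbol in the platform annotation and took theirs, with its Entrez number, from the probe list of the study, which lists probes that changed.

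Defa20 was read by 3 probes. Probe 1 (ILMN_1230099) gave 163, 211 and 217 units in spermatids of controls 1 to 3 and 95.0, 106 and 118 units in those of mutants 1 to 3. Probe 2 (ILMN_2739019) gave 150, 187 and 197 units in the controls and 101, 93.6 and 109 in the mutants. Both were detected on all 3 control arrays and on none of the mutant arrays, with no overlap between groups. Probe 1 averaged 6.81 ± 0.76 in controls and 4.46 ± 0.13 in mutants (SD, n = 3 each), at least 3.99-fold higher in controls. Probe 2 averaged 6.53 ± 0.78 and 4.35 ± 0.10, at least 3.28-fold higher in controls. Their fitted differences, -2.46 ± 0.29 and -2.32 ± 0.29 (SE), depend on the background level at which the mutants were read. The bounds use the lowest detected signal in place of that level, but they too depend on the background correction. Without that correction the fitted differences were -1.03 and -0.96, smaller than these bounds. Probe 3 (ILMN_2675560) was detected on none of the arrays, averaged 4.37 to 4.50 in the 4 groups, and was not tested.

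Defa39 was dim in every sample. Its probe (ILMN_2757031, Entrez Gene 382000) read 135, 130 and 132 units in spermatids of controls 1 to 3, each detected, and 106, 101 and 125 units in those of mutants 1 to 3, none detected. The normalized signals were 5.28, 5.40 and 5.97 in controls and 4.63, 4.37 and 4.80 in mutants. The groups did not overlap, and mutant 3 came closest to the controls (detection p-value 0.057). The means were 5.55 ± 0.37 and 4.60 ± 0.22 (SD, n = 3 each), at least 1.66-fold higher in controls, with a fitted difference of -0.997 ± 0.236 (SE).

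**Figure D1:**
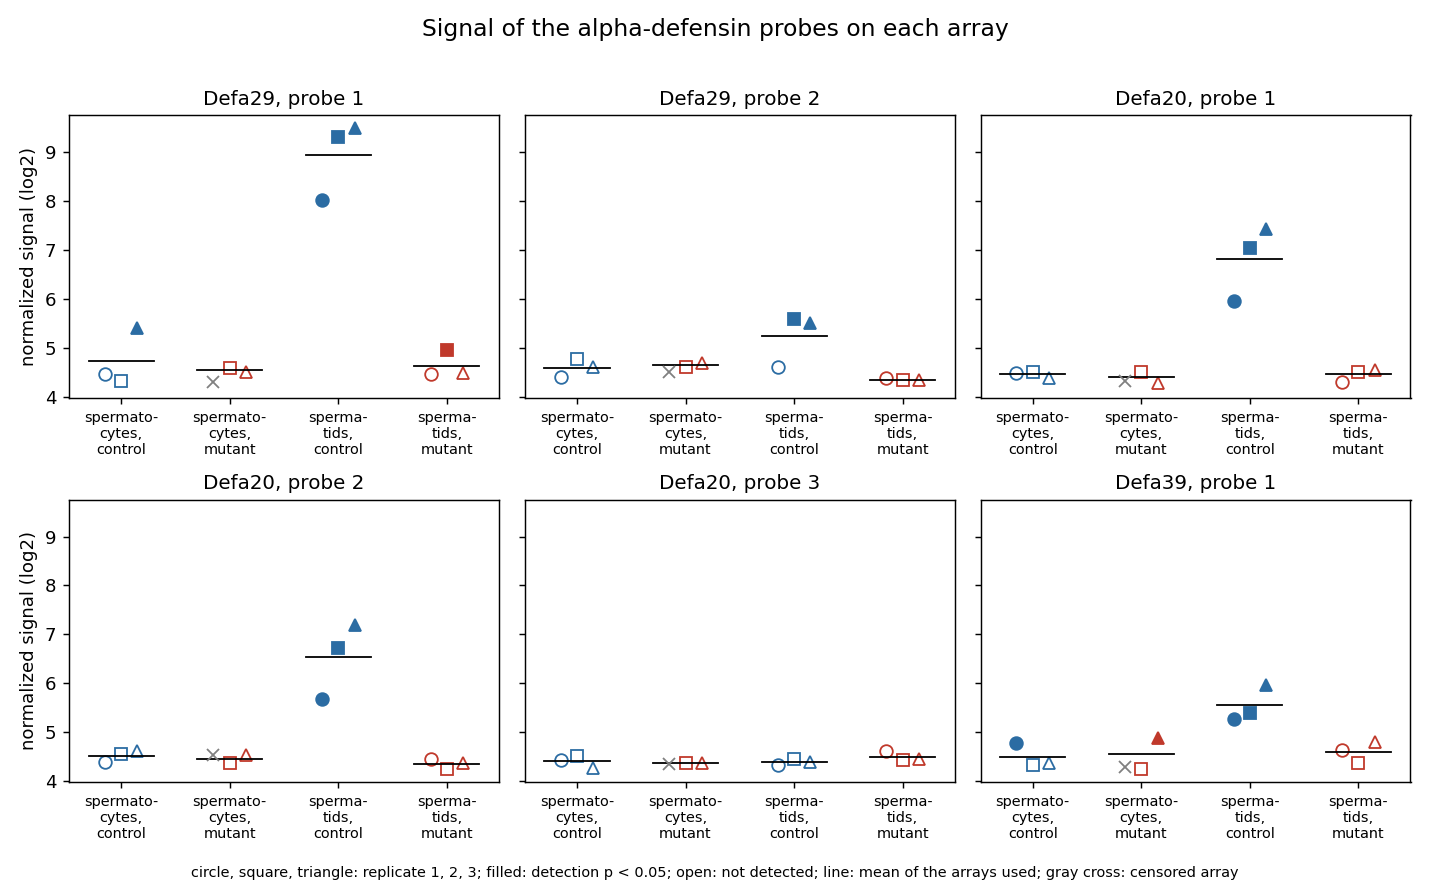
Normalized log2 signal (vertical axis) of the 6 probes on each array, grouped by cell type and genotype (horizontal axis). Filled symbols were detected, open ones were not, lines are means of the arrays used and the gray cross is the array left out. Only control spermatids stand out, with Defa29 probe 1 between 8.03 and 9.49.

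A probe was called where the fold was 2 or more and the adjusted p-value was under 0.05. By this rule 3 of the 5 tested probes were lower in mutant spermatids, namely Defa29 probe 1 and Defa20 probes 1 and 2, where 1.16% of all tested probes were called lower. Control and mutant spermatids did not overlap for any of the 5, against 12.4% of all tested probes in that direction. Because the genes were picked on this difference, nothing is read from either share. Defa39 and Defa29 probe 2 fell just outside the rule, with folds of 1.996 and 1.95. With the spermatid array of control 1 left out, all 5 probes were called. Without background correction 2 were called, and the differences shrank to -2.52 for Defa29 probe 1 and to -1.03 and -0.96 for Defa20 probes 1 and 2.

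After normalization control 1 was the lowest control spermatid sample for every tested probe of the 3 genes. In bead signal this held for Defa29 and Defa20, but not for Defa39, in which control 1 read 135 units against 130 and 132. On the normalized scale, relative to the mean of controls 2 and 3 it was lower by 1.38 and 0.94 on the log2 scale for the Defa29 probes, by 1.27 and 1.29 for the Defa20 probes and by 0.41 for Defa39. The median of the same difference over probes detected on all control spermatid arrays was 0.00494. On the round spermatid markers control 1 was close to controls 2 and 3 (11.26 against 11.43 and 11.29).

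The comparison of mutant with control spermatocytes had no part in the choice of the genes, but it could say little about them, since most signals were at background. Defa29 probe 1 read 111, 103 and 125 units in spermatocytes of controls 1 to 3 and 102 and 107 units in those of mutants 2 and 3. Only control 3 was detected (detection p-value 0.003), and the fitted difference was -0.08, with a 95% interval of -1.06 to 0.89. Defa39 was detected in the spermatocytes of control 1 (detection p-value 0.041) and of mutant 3 (detection p-value 0.027), and its fitted difference of 0.01 had an interval of -0.66 to 0.67. Defa29 probe 2 and both Defa20 probes were undetected on all 5 spermatocyte arrays. These 3 probes had passed the detection filter only through control spermatids, so background was set against background, and whether their transcripts differed between genotypes in meiotic cells could not be measured. None of the 5 probes was called (limma), where 0.41% of all tested probes were, and the same held without the spermatocyte array of mutant 3, but this count carries no evidence for an equal level.

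In controls, all 5 probes were brighter on average in spermatids than in spermatocytes. This comparison uses the control spermatid arrays on which the genes had been picked, so the values are a description. Defa29 probe 1 averaged 4.73 ± 0.59 in control spermatocytes (SD, n = 3), against 8.95 in spermatids, with a fitted difference of 4.43 ± 0.33 (SE). In control spermatocytes no array detected either Defa20 probe, and in spermatids they were at least 4.004-fold and 3.30-fold higher. In the fit Defa39 differed by 1.05 ± 0.22 and Defa29 probe 2 by 0.76 ± 0.22 (SE). Of the 5 probes, 4 were called higher in spermatids, beside 13% of all tested probes, and the exception was Defa29 probe 2, in which the spermatid array of control 1 (4.62) lay within the spermatocyte range of 4.41 to 4.77. Without background correction 2 of the 5 were called.

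In mutants the 5 probes were mostly at background in both cell types. The fitted differences of mutant spermatids minus mutant spermatocytes were 0.09 and -0.30 for the Defa29 probes, 0.08 and -0.11 for the Defa20 probes and 0.05 for Defa39. None was called (0 of 5), where 31.3% of all tested probes were called in either direction. Defa29 probe 2 and both Defa20 probes were undetected on every mutant array used. Background was thus largely set against background, and the count carries no evidence for a lack of change. This comparison shares the mutant spermatid arrays with the one that picked the genes and is likewise a description. By group mean, control spermatids came first for every tested probe, and the other 3 groups overlapped. The exception was Defa29 probe 2, whose mutant spermatids (4.34 to 4.37) lay below both spermatocyte groups (4.41 to 4.77), with all of these arrays undetected.

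**Figure D2:**
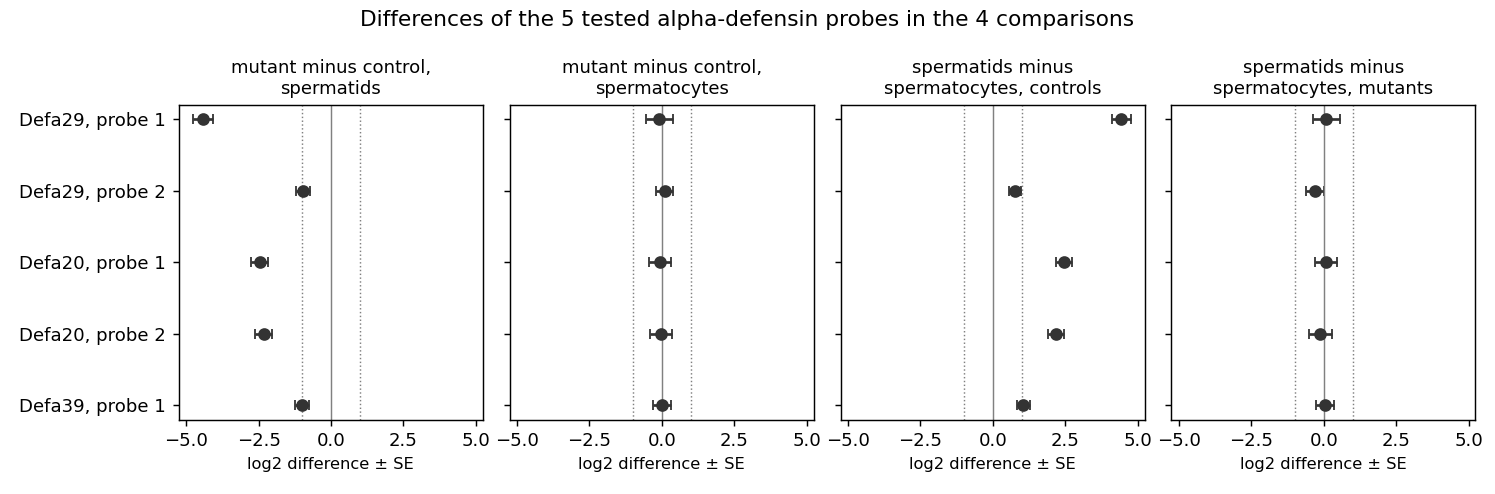
Fitted log2 differences (points) and their SE (bars) of the 5 tested probes in the 4 comparisons, with dotted lines at a fold of 2. Differences are -4.43 to -0.97 between spermatid genotypes and 0.76 to 4.43 between control cell types. They lie near 0 in the other 2 panels, in which most signals were at background.

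The tested probes varied together over the 11 arrays. Pearson's r was 0.987 between the Defa20 probes, 0.977 between Defa29 probe 1 and Defa20 probe 1, and 0.889 between Defa20 probe 1 and Defa39, all carried mainly by the control spermatid arrays. It was lowest between Defa29 probe 2 and Defa39 (0.729), followed by the pair of Defa29 probes (0.841). The genes with the pattern most like Defa29 probe 1 were Chac1 (r = 0.977), which encodes a glutathione-degrading enzyme, Defa20 (0.977), Rufy1 (0.967), an endosomal Rab effector, Slc2a4 (0.965), the insulin-responsive glucose transporter, and Dnajb5 (0.962), a co-chaperone. Those most like Defa20 probe 1 were AY761185 (0.984), Defa29 (0.977), AK016453 (0.966), Rufy1 (0.964) and Ncan (0.963), a matrix proteoglycan. Those most like Defa39 were Wdr33 (0.967), a factor of mRNA 3′ end formation, Sulf1 (0.937), L1td1 (0.937), Smyd3 (0.929) and Igfbp4 (0.914). Chac1 differed by -3.05 between mutant and control spermatids and Rufy1 by -1.93. Likeness of pattern did not mean a like size, since Slc2a4 and Smyd3 each differed by -0.35, Wdr33 by -0.53 and Sulf1 by -0.55. Slc2a4 and Smyd3 were also near background, at 4.82 and 4.72 in control spermatids. The arrays share groups and normalization, so these values of r rank likeness and no more.

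The other alpha-defensins were mostly below detection. They comprised 7 genes with 11 probes, of which 4 were detected on 1 or more arrays and tested. AY761185 followed the pattern of Defa20. Its detected probe (ILMN_1212867) gave 5.22, 6.57 and 6.67 in spermatids of controls 1 to 3 and 4.23, 4.22 and 4.27 in those of mutants 1 to 3 on the log2 scale. Control 1 was again the lowest control, no mutant was detected, and the signal was at least 2.53-fold higher in controls. This probe owes its name to the list of changed probes of the study, with an Entrez number that RefSeq did not hold, so its difference is a description too. A second AY761185 probe was detected on no array.

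The other 3 genes detected on any array did not reach the rule in any comparison (limma). Each was at background in most groups, so their values are given without a test. Defa3 was detected on the spermatid arrays of controls 1 and 2, with 5.42, 4.96 and 4.77 in controls 1 to 3 and 4.43, 4.29 and 4.45 in mutants 1 to 3. The groups did not overlap, with no mutant array detected. Control 1 was the highest control for Defa3, the opposite of its place for Defa29, Defa20 and Defa39. Defa21 was detected in control spermatocytes alone, at 4.83, 5.20 and 4.89 in controls 1 to 3. It was not detected in mutant spermatocytes, at 4.62 and 4.68, which overlapped the range of 4.42 to 4.66 in spermatids of both genotypes, where it was not detected either. Defa31 was detected on 2 spermatocyte arrays, and Defa23, Defa26 and the pseudogene Defa-ps1 on none. Probe sequences were not used here, so which of the near-identical copies a probe reads cannot be told apart.

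**Figure D3:**
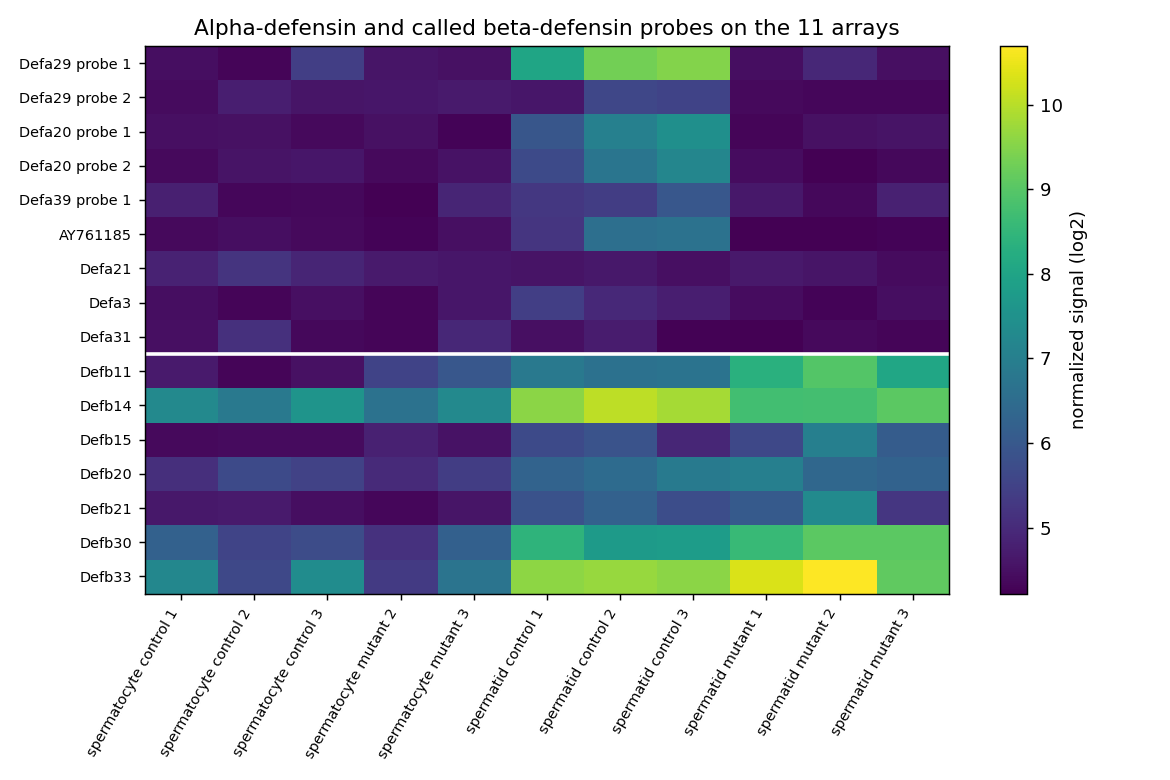
Normalized log2 signal (color) of the 9 tested alpha-defensin probes (above the white line) and of the 7 beta-defensin probes called in any comparison (below it) on the 11 arrays. The alpha-defensin signal is confined largely to control spermatids, whereas Defb14, Defb30 and Defb33 are bright in spermatids of both genotypes.

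Beta-defensins, a second family of antimicrobial peptides best known from epithelia such as that of the epididymis, served as the nearest comparison. Of 44 genes with a probe, 23 were tested by 24 probes. Between spermatid genotypes 2 were called higher in mutants, where 2.87% of all tested probes were, and 0 lower, where 1.16% were. Defb11 averaged 6.72 ± 0.10 in control and 8.45 ± 0.47 in mutant spermatids (SD, n = 3 each), a rise of 1.72 ± 0.22 (SE, adjusted p = 0.00037, limma). Defb30 rose by 1.003 ± 0.27 (SE, adjusted p = 0.039, limma), a fold of 2.004 at the edge of the rule, and under 8 alternatives only 1 beta-defensin probe was called. Defb14 lay just outside the rule in the other direction, with 9.81 ± 0.24 in control and 8.85 ± 0.18 in mutant spermatids (SD, n = 3 each), no overlap and a fitted difference of -0.96 ± 0.21 (SE, adjusted p = 0.014, limma). With median scaling 1 beta-defensin was called higher and 1 lower. The median difference was 0.17 over the beta-defensin genes and -0.03 over all tested probes. In spermatocytes 0 were called between genotypes, where 0.41% of all tested probes were. From control spermatocytes to control spermatids 7 of the 24 probes rose, where 13% of all tested probes did, and 0 fell, led by Defb33 (2.82 ± 0.43) and Defb14 (2.63 ± 0.20, both SE). In mutants 7 of the 24 rose, where 14.8% of all tested probes did, and 0 fell, led by Defb33 (3.94 ± 0.62) and Defb30 (3.26 ± 0.36, both SE).

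In the surrounding stretch of chromosome 8, genes outside the defensin families were called in both directions in mutant spermatids. Within 1000000 bases on either side of the 3 genes, 16 such genes were tested by 25 probes. Of these probes 3 were called higher, where 2.87% of all tested probes were, and 1 lower, where 1.16% were. With 25 probes these few calls say little about the stretch. Nek3, a protein kinase gene beyond the beta-defensins, rose in mutant spermatids in all 3 of its probes, by 2.12 ± 0.28, 1.92 ± 0.24 and 1.30 ± 0.24 (SE, adjusted p = 0.00039, 0.00033 and 0.0042, limma). Thsd1, which encodes a membrane protein with a thrombospondin domain, fell in 1 of its 2 probes by 1.24 ± 0.24 (SE, adjusted p = 0.0066, limma). In spermatocytes 0 of the 25 probes were called between genotypes, where 0.41% of all tested probes were.

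**Figure D4:**
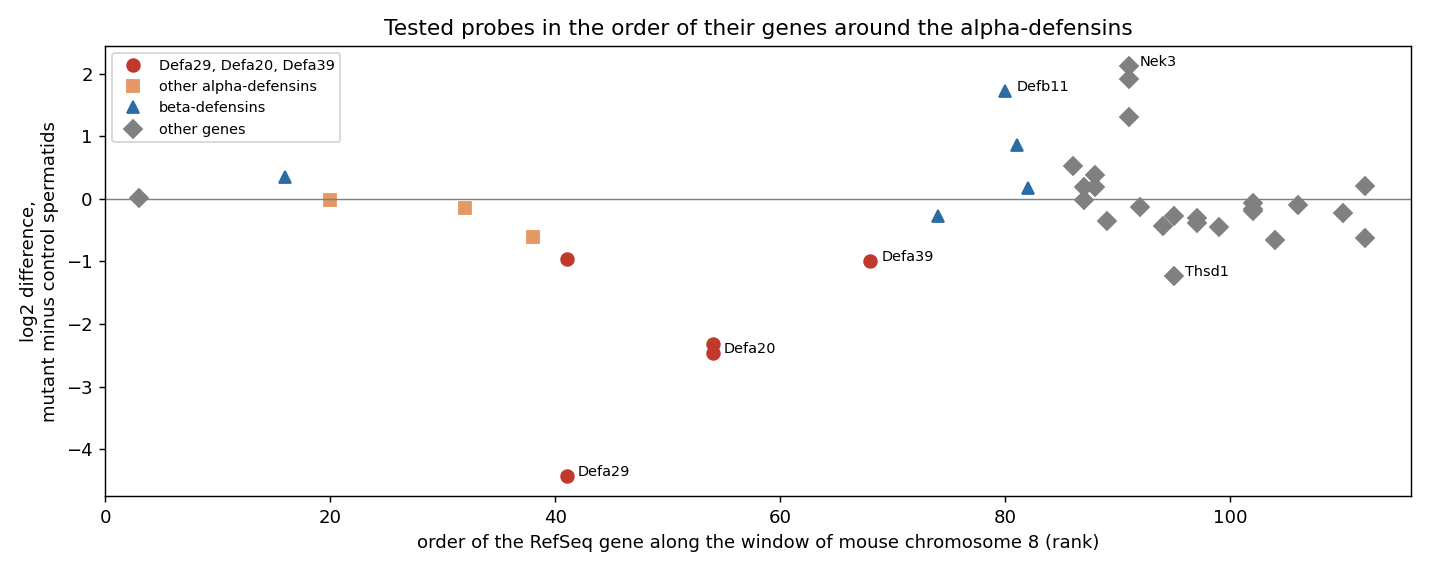
Fitted log2 difference of mutant minus control spermatids (vertical axis) for each tested probe, placed by the order of its gene on chromosome 8 (horizontal axis, rank). Defa29, Defa20 and Defa39 lie at -4.43 to -0.97, and Defb11 and Nek3 are the highest points, at 1.72 and 2.12. AY761185 is not drawn because RefSeq does not place the gene number of its detected probe.

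Genes that go with alpha-defensins in Paneth cells were counted in the same way. Of 19 listed genes 18 had a probe and 10 were tested. In mutant spermatids 3 were called higher, where 2.87% of all tested probes were, and 0 lower, where 1.16% were. With 10 genes tested, 0 lower is near that share, and nothing is read from it. Spdef, a transcription factor of secretory cells of the gut, averaged 5.89 ± 0.16 in control and 9.27 ± 0.38 in mutant spermatids (SD, n = 3 each), a rise of 3.41 ± 0.26 (SE, adjusted p = 5.1e-06, limma). Sox9, a transcription factor needed for Paneth cells and also made by Sertoli cells, rose by 1.21 ± 0.23 (SE, adjusted p = 0.00496, limma). One probe of Lyz1, the lysozyme of Paneth cells, rose by 1.35 ± 0.32 (SE, adjusted p = 0.020, limma), whereas its other probe averaged 5.55 in control and 5.46 in mutant spermatids. From control spermatocytes to control spermatids Spdef rose by 1.54 ± 0.24, and Xbp1 and Gfi1, a pair of transcription factors of secretory cells, fell by 2.16 ± 0.22 and 2.12 ± 0.23 (SE). Mmp7, the protease that matures alpha-defensins in the mouse gut, was detected on none of the 11 arrays, and neither were Pla2g2a, Reg3g and Itln1.

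Markers of other cell types were measured beside the alpha-defensins. The neutrophil list averaged 4.73 to 5.07 in control and 4.75 to 5.26 in mutant spermatids, with 0 of 6 tested markers called. Its members differed: S100a8 and S100a9 were detected on none of the 11 arrays, whereas Mpo was detected on all of them. Mpo averaged 7.66 in control and in mutant spermatids, and Lcn2 averaged 6.02 in control and 7.37 in mutant spermatids. The list means of 4 somatic cell types were higher in every mutant spermatid sample than in any control. Macrophage markers averaged 5.03 to 5.07 in controls and 5.37 to 5.62 in mutants (1 of 8 tested called higher), and Leydig cell markers 4.92 to 5.30 and 5.35 to 5.93 (2 of 4). The Leydig list did not rise as a whole. Cyp17a1, Insl3 and Cyp11a1 averaged 6.14, 8.43 and 4.54 in control and 8.30, 9.41 and 5.88 in mutant spermatids. Star, Hsd3b1, Hsd3b6, Nr5a1 and Hsd17b3 were detected on no spermatid array. Myoid cell and fibroblast markers averaged 5.15 to 5.44 and 6.02 to 6.06 (2 of 9), and endothelial markers 4.86 to 5.002 and 5.12 to 5.58 (1 of 6). No marker of these lists was called lower in mutant spermatids, where 1.16% of all tested probes were called lower and 2.87% higher. With so few markers tested, 0 lower is near that share, and nothing is read from it. The Paneth cell list averaged 4.48 to 4.56 and 4.69 to 4.86, with 1 of 2 tested markers called higher. That marker was Lyz1, whose brighter-read probe here averaged 5.01 in control and 6.28 in mutant spermatids, while Ang4 averaged 4.75 and 4.69. Mmp7, Pla2g2a, Reg3g and Itln1 were undetected, so the mean does not describe the list as a whole. Sertoli cell markers overlapped, with 5.32 to 5.77 and 5.39 to 5.79 (1 of 6), and so did those of the epididymal epithelium, with 4.54 to 4.73 and 4.61 to 4.74 (0 of 1). The part of these other cell types in the alpha-defensin differences was not tested.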

How the data were processed

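Biotin-labeled cRNA from sorted cells was hybridized to 12 arrays. The authors deposited 1 linear bead intensity per probe, not background-subtracted, and a detection p-value (deposited with each intensity) from the negative-control beads, made in BeadStudio per the methods and in GenomeStudio 2011.1 per the processing notes. The log2 values deposited by the authors were made with limma 3.12.1 by normexp correction with control probes and quantile normalization, and served as an alternative. The number of arrays limits the precision, and p-values rest on the spread between arrays within the groups. With 1 array for each cell type of a mouse, that spread mixes differences between mice with those of sorting and hybridization. Both cell types of a mouse were fitted as independent arrays.

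Here the intensities were corrected by normexp (offset 16), with the negative controls inferred from the detection p-values, quantile normalized over 12 arrays, and fitted with limma 3.58.1 in R 4.3.3 as 4 group means over 11 arrays with array weights. The largest difference from the deposited log2 values was 0.0458. The 28751 probes with a detection p-value under 0.05 on 1 or more arrays were tested, with Benjamini-Hochberg adjustment over all of them. The fit and the calling rule were tested on simulated normalized signals. The background correction, the normalization and the detection filter were not.

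Names came from the platform annotation (34885 probes with 1 symbol, 18 with several, left unnamed) or, for 444 probes, the study's probe list, whose fold changes and p-values were not used, and 9952 probes had no name here. RefSeq also lists Defa29 as an older name of Defa5, and Defa20 as one of Defa32. Named were all probes of the 3 genes, other alpha-defensins detected or called, the largest called beta-defensin changes, called genes of the Paneth cell list and of the neighborhood, and the 5 genes most like each member by Pearson's r. A list counted each gene by its brightest tested probe. The genes, lists and tests were chosen with earlier results of these data known. Promoters were aligned globally to that of Defa20.

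Both cell types of a number came from the same mouse per the labels and methods. Deviations from group means correlated within mice at 0.227, 0.000941 and 0.183 in controls and -0.0430 and 0.144 in mutants. Alternatives were another background correction, scaling, detection filter, weighting or set of arrays, blocks by mouse or replicate number, and leaving out each array.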

Additional observations from a re-analysis of the deposited data

How the results depend on the processing

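The number of probes of Defa29, Defa20 and Defa39 called lower in mutant spermatids (3 of 5) was 2 to 4 under 10 alternatives and 3 to 5 with 1 array left out, reaching 5 without control 1. Called higher in control spermatids against control spermatocytes were 4, with 2 without background correction and 3 to 4 with 1 array left out. The other comparisons gave 0 throughout, over 21 alternatives each. With a replicate block by mouse the counts were 4, 0, 4 and 0 for spermatid genotypes, spermatocyte genotypes, controls and mutants, and by replicate number 3, 0, 3 and 0. Same-numbered control and mutant samples deviated together at r = 0.314, 0.0748 and 0.146 in spermatids and 0.539 and 0.422 in spermatocytes, and the labels do not say that the number marks a litter.

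The differences between spermatocyte genotypes, all near 0, changed sign. Defa29 probe 1 became 0.00901 with median scaling and -0.390 to 0.160 with 1 array left out (positive without control 3). Defa29 probe 2 became -0.130 with the block by number and -0.0382 to 0.149 with 1 array left out (negative without control 1). Defa20 probe 1 ranged from -0.182 to 0.0449 (positive without mutant 3), and probe 2 became 0.0254 with the censored array and -0.135 to 0.0516 with 1 array left out (positive without mutant 2). Defa39 became -0.0306 without background correction, -0.0147 with detection required on every array of a group, and -0.332 to 0.316 with 1 array left out (negative without mutant 3 or control 2). The cause was not tested.

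Without background correction 307 probes in all were called between spermatid genotypes in place of 1158, 35 in place of 118 between spermatocyte genotypes, 4378 in place of 8123 in controls and 5004 in place of 9007 in mutants, and AY761185 was not called. Between spermatocyte genotypes the count was also 187 with median scaling, 4 with only those arrays, 785 with the censored array and 31 to 612 with 1 array left out. Median scaling moved the median of all tested probes to -0.16 there and to -0.10 between control cell types. Slide as a block was not run, since no slide was given in the sources used here. Signals of about 100 units lie at the background of these arrays, which limits the dim probes.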
